A study of Rattus norvegicus with 9 samples.

Results

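The contrast described here asks whether mechanical ventilation changed gene expression in rat lung by a different amount in 100% oxygen than in 21% oxygen. It is the change with ventilation at 100% oxygen minus the change with ventilation at 21% oxygen, taken on log2 intensities, and it uses all 4 groups, so its members are all 8 samples of the series. The groups were rats breathing spontaneously in 21% oxygen (spontaneous 21%), breathing spontaneously in 100% oxygen (spontaneous 100%), mechanically ventilated with 21% oxygen (mechanical 21%) and mechanically ventilated with 100% oxygen (mechanical 100%). Total RNA of lung tissue was measured on 9 short-oligonucleotide arrays. Each group had 2 samples, lettered a and b. Sample b of mechanical 100% was measured on 2 arrays, coded s2A and s2B, which were averaged and counted once. The labels give no strain, age, sex, tidal volume, pressure, duration or sedation, and they do not say whether a and b are different rats. The p-values therefore reflect the spread of these samples alone, and that spread may be technical. The fit over the 8 samples had 4 residual degrees of freedom.

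Ventilation with large breaths stretches alveolar epithelium and capillary endothelium, and breathing pure oxygen loads the same cells with reactive oxygen species. Both are known causes of lung injury, with leak of the alveolar capillary barrier and inflammation, and both occur together in intensive care. Immediate early genes encode transcription factors and their regulators that stretched or oxidant-exposed cells transcribe within minutes without new protein synthesis. A CArG box (bound by serum response factor) or a cAMP response element (bound by CREB and its relatives) is a usual switch in their promoters.

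An interaction of 0 means that the 2 exposures multiplied on the intensity scale: the combined group then lies at the additive prediction, which is the log2 level of spontaneous 100% plus that of mechanical 21% minus that of spontaneous 21%. A positive interaction means that mechanical 100% lay above that prediction, and a negative one that it lay below. The interaction is given in log2 units ± its standard error, with a p-value from limma adjusted by the Benjamini-Hochberg method, and a probe set or gene is called when that adjusted p is under 0.05. A positive interaction does not by itself say that both exposures raised a gene, since a gene that was lower in each singly exposed group and at its starting level in the combined group has one too. Intensities are the deposited values on a linear scale. As unspiked controls 23 control probe sets were taken: those for mouse and yeast genes, and those for the opposite strand of spiked or rat control transcripts. They read at most 471, a level reached by an opposite-strand set, and the mouse and yeast sets read at most 302. Differences among readings below 471 carry little information.

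Of 8740 probe sets on the array without its controls, 5244 were tested and 1439 (27.4%) were called for the interaction, 888 (16.9%) higher and 551 (10.5%) lower. Represented by the brightest probe set of each gene, 860 of 3181 tested genes (27.0%) were called, 523 (16.4%) higher and 337 (10.6%) lower, with a median interaction of 0.15 over all tested genes. A further 1555 genes on the array had their brightest probe set under the intensity limit and were not tested. The simple changes from which the interaction is built were called for 760 probe sets (14.5%) for ventilation at 21% oxygen, 1413 (26.9%) for ventilation at 100% oxygen, 879 (16.8%) for oxygen in spontaneous breathing and 1841 (35.1%) for oxygen under mechanical ventilation. The excess of higher over lower calls depended on the normalization, and its source was not tested. Higher calls made up 61.7% of the calls on the values as scaled by the authors. They made up 51.2% (714 higher and 680 lower) after quantile normalization and 49.0% (656 higher and 683 lower) after cyclic loess normalization. These moved the median interaction over the probe sets from 0.15 to -0.01 and -0.04. A gene's interaction is therefore best read against that shift, and for some gene groups below the median after quantile normalization is given as well. The other group medians, and the bins by gene length and brightness, are on the values as scaled by the authors only. Without the letter b sample of mechanical 21% the lower calls numbered 337, and without its letter a sample 342.

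**Figure D1:**
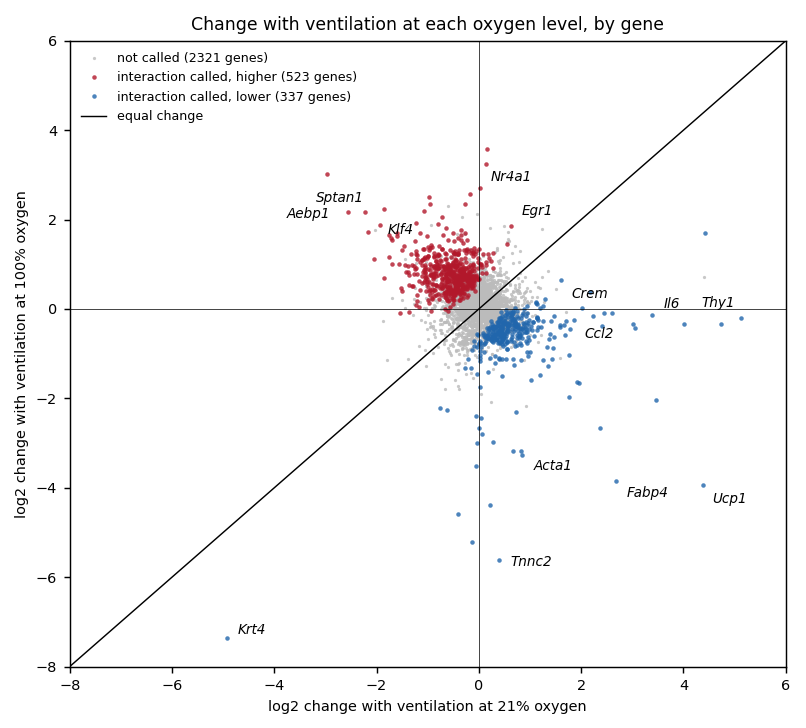
Each point is 1 of 3181 tested genes, placed by its log2 change with ventilation at 21% oxygen (horizontal axis) and at 100% oxygen (vertical axis). The black line marks equal changes, the interaction is the vertical distance from it, with the 523 genes called higher (red) above the line and the 337 called lower (blue) below it.

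Most called genes did not follow the pattern of 2 exposures that each raise a gene and together raise it more. Among the 523 genes called higher, 450 (86.0%) had group means in which spontaneous 21% and mechanical 100% both lay above both singly exposed groups, an order that a positive interaction favours and that 26.5% of all tested genes had. Mechanical 100% was the highest group for 379 of the 523 and spontaneous 21% for 139. Among the 337 genes called lower the mirror order held: both singly exposed groups lay above the other pair in 259 genes (76.9%, against 15.8% of all tested genes). By a stricter rule, which asked that the mean of the group stand at least 1 log2 unit from the nearest other group and that the other groups spread over at most that distance divided by 2, few called genes stood apart in 1 group. Of these, 18 were high in mechanical 21%, 10 low and 9 high in mechanical 100%, 8 low and 3 high in spontaneous 100%, 5 low in mechanical 21% and 3 low in spontaneous 21%. Among called genes in which no group stood apart by that rule, 270 crossed, with changes with ventilation of at least 0.5 in opposite directions at the 2 oxygen levels. Another 6 of them had changes of at least 0.5 in the same direction at both. Genes already counted as standing apart are not in these numbers, such as Egr1, with changes of 0.63 and 1.85. The other 528 called genes (61.4%), 297 called higher and 231 lower, met none of these rules. The interaction term thus gathered several different patterns, some of which are described below. Both mechanical 21% samples also stood apart in T cell and fat marker RNA, and both spontaneous 100% samples in muscle marker RNA, with values given beside those markers.

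A technical label ran almost along this contrast. A line for a lot batch, which names no lot, stands in the descriptions of both spontaneous 21% arrays and of the mechanical 100% arrays, except the array s2A of the letter b sample, and it is absent for both singly exposed groups. What the line stands for is not given in the sources used here, and apart from that 1 array the lot line and the interaction cannot be told apart. Only the repeated sample was measured on arrays of both kinds. Between s2A, without the line, and s2B, with it, the median log2 difference over the 523 genes called higher was -0.07, over the 337 called lower -0.06 and over all tested genes -0.07; this is 1 sample, and the part of the lot line in the other groups was not tested. The SD of the difference between the 2 arrays was 0.364 log2 units over probe sets, against 0.435, 0.389 and 0.377 between samples a and b of spontaneous 21%, spontaneous 100% and mechanical 21%, and 0.507 (s2A) and 0.539 (s2B) between samples a and b of mechanical 100%. With s2A alone standing for its sample, 1344 probe sets were called (833 higher, 511 lower), and with s2B alone 1492 (932 higher, 560 lower). A further fit of the 9 arrays took the lot line as a term. It has only that repeated sample and its companion to tell lot from group, so its lot estimate also holds the difference between samples a and b. Unlike in the main fit, s2A and s2B entered as separate arrays, and the standard errors and p-values of this fit treat them as independent. The fit widened the median standard error from 0.29 to 0.50 and called 159 probe sets (100 higher, 59 lower). Of these, 148 were called in the same direction without the term. Among the 3181 tested genes that fit called 94.

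Gene length also moved with the interaction. Ordered by the length of the gene in the RefSeq annotation of GRCr8 and divided into 5 bins, the shortest 636 genes (median 3.55 kb) had a median interaction of -0.16 and the longest 635 (median 111 kb) one of 0.53, with -0.06, 0.08 and 0.34 in the bins between. In the shortest bin 8.33% of the genes were called higher and 19.97% lower, and in the longest bin 27.9% and 1.73%. The longest genes were lower in both singly exposed groups than in spontaneous 21% (medians -0.12 in spontaneous 100% and -0.21 in mechanical 21%) and higher in mechanical 100% (0.20). The genes called higher had a median length of 41.1 kb, those called lower 9.58 kb and those not called 21.1 kb. Across 3176 genes with a length, Spearman's rho between length and interaction was 0.33, a description over genes that share the same arrays and are not independent. The difference between the repeated arrays did not run along length, with a median of -0.06 in the shortest bin and -0.07 in the longest. Ratios of 3' to 5' probe sets, a common gauge of RNA integrity, lay between 0.954 and 1.15 for beta-actin and between 1.08 and 1.29 for GAPDH over the 9 arrays. Brightness moved less evenly: the median interaction was 0.23, 0.29, 0.29, 0.10 and -0.19 from the dimmest to the brightest of 5 bins of genes. The part of length, RNA quality and brightness in the calls was not tested.

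**Figure D2:**
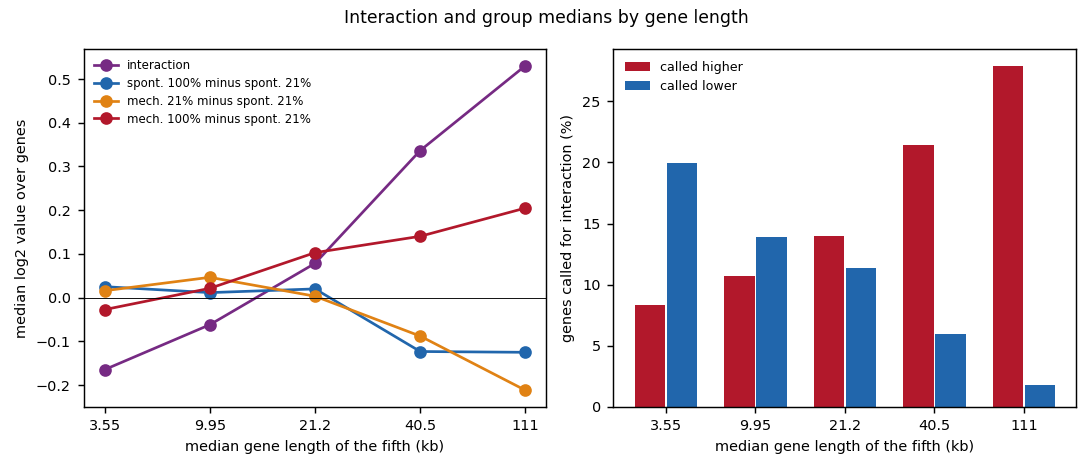
Left, the median log2 interaction and the median log2 difference of 3 groups from spontaneous 21%, for 5 bins of genes ordered by length (horizontal axis, median length of the bin in kb); right, the percentage of genes in each bin called higher (red) or lower (blue) for the interaction. The median interaction went from -0.16 to 0.53 and the called share from mostly lower to mostly higher.

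Of 33 tested members of the immediate early list, 16 were called higher and 2 lower, and the median interaction was 0.95 (0.72 after quantile normalization), against 16.4%, 10.6% and 0.15 over all genes. With the lot line as a term their median was 0.53 and 2 of the 33 were called, against 94 of all 3181 tested genes. The higher calls held more than 1 pattern: in some genes only the combined group was high, and in others both singly exposed groups were low. These genes are short, with a median length of 4.34 kb, and the shortest bin of all genes had a median interaction of -0.16. The part of length in these calls was not tested. Promoter stretches of 3 of them show elements of this kind. They were read from RefSeq promoters of GRCr8, 5′ to 3′ on the strand of the gene and ending at the base before the annotated start, with CArG boxes or cAMP response elements in capitals. The Egr1 and Zfp36 stretches belong to genes called higher and the 2 Crem stretches, from alternative starts, to a gene called lower.
Egr1, chr18:26736948-26737077, plus strand: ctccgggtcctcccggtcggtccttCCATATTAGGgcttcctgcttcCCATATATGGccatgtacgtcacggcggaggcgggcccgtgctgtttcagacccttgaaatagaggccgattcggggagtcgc
Zfp36, chr1:92799109-92799188, minus strand: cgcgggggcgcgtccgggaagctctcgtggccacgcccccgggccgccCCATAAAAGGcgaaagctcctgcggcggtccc
Crem, chr17:58984717-58984796, plus strand: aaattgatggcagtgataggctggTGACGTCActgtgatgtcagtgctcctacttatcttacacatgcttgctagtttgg
Crem, chr17:58985410-58985489, plus strand: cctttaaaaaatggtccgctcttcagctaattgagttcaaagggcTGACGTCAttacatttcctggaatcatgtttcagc
The capitals mark 2 CArG boxes in Egr1 and 1 in Zfp36 (CC, then 6 bases that are A or T, then GG), and 1 cAMP response element, TGACGTCA, in each Crem stretch. Both strands were searched over the 250 bases before each start, for these and for the AP-1 sites TGAGTCA and TGACTCA, the heat shock element GAANNTTC and the E-box CACGTG. Over 33469 RefSeq promoter windows of that length, 1.497% held a CArG box, 1.59% a cAMP response element, 4.05% an AP-1 site, 7.23% a heat shock element and 5.59% an E-box. Promoters were found for 10 of the 15 genes named here from the immediate early and heat shock lists, and of these 2 held a CArG box, 1 a cAMP response element, 2 (Crem and Hspe1) a heat shock element and 0 an AP-1 site or E-box. A match is a run of letters and not a measured site.

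Egr1, a zinc finger transcription factor switched on by serum response factor, measured 997 and 1138 in spontaneous 21%, 1691 and 1640.5 in spontaneous 100%, 1579.5 and 1761 in mechanical 21%, and 6424 and 5833 in mechanical 100%. Both singly exposed groups were a little above spontaneous 21%, and mechanical 100% stood far above all other samples. Each exposure alone raised it, by 0.63 ± 0.13 for oxygen (adjusted p = 0.015) and 0.63 ± 0.13 for ventilation (adjusted p = 0.016). The additive prediction was 2595, and the combined group lay 2.34 times above it (interaction 1.23 ± 0.18, adjusted p = 0.0024). A further 3 Egr1 probe sets were called in the same direction, with interactions from 2.03 to 2.19. Nr4a1, an orphan nuclear receptor induced by calcium and cAMP signals, measured 466 and 751 in spontaneous 21%, 1072 and 756 in spontaneous 100%, 559 and 648 in mechanical 21%, and 6505 and 5635 in mechanical 100%. Mechanical 21% lay within the spread of spontaneous 21% and spontaneous 100% just above it, whereas the combined group was several times higher than any other sample and 6.38 times above the prediction (interaction 2.67 ± 0.34, adjusted p = 0.0014). Its relative Nr4a3 did likewise at lower intensities, with 1603 and 895 in mechanical 100% and no sample above 220.3 elsewhere (interaction 2.63 ± 0.47, adjusted p = 0.0056), although a dimmer Nr4a3 probe set gave -0.16 and was not called.

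The AP-1 subunits did not move as a block. Jun, which pairs with Fos proteins on AP-1 sites, measured 1884 and 1809 in spontaneous 21%, 2079 and 2202 in spontaneous 100%, 1660.2 and 1753 in mechanical 21%, and 6020.3 and 4392 in mechanical 100%. Only the combined group was raised, with the letter a sample higher than the letter b sample (interaction 1.36 ± 0.22, adjusted p = 0.0037). Of 3 other Jun probe sets 1 was called, and their interactions ran from -0.36 to 1.89. For Fos the readings were 1154 and 1065 in spontaneous 21%, 1584 and 1753 in spontaneous 100%, 1064 and 1189 in mechanical 21%, and 3479 and 3334 in mechanical 100%. Oxygen in spontaneous breathing raised it (log2 change 0.57 ± 0.12, adjusted p = 0.020), ventilation at 21% did not separate from no change (0.02 ± 0.12), and the combined group was 1.99 times the prediction (interaction 0.99 ± 0.18, adjusted p = 0.0051). Junb was close to additive. It measured 1616 and 1843 in spontaneous 21%, 3439.6 and 2989.6 in spontaneous 100%, 2281 and 1784 in mechanical 21%, and 4151 and 3233 in mechanical 100%. Oxygen raised it in both breathing modes and the interaction was -0.03 ± 0.25, with a 95% interval of -0.60 to 0.53 (adjusted p = 0.94); the sign of so small a value turned on untransformed intensities and when any of 4 samples was left out (spontaneous 21% a, spontaneous 100% a, mechanical 21% a or mechanical 100% b).

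**Figure D3:**
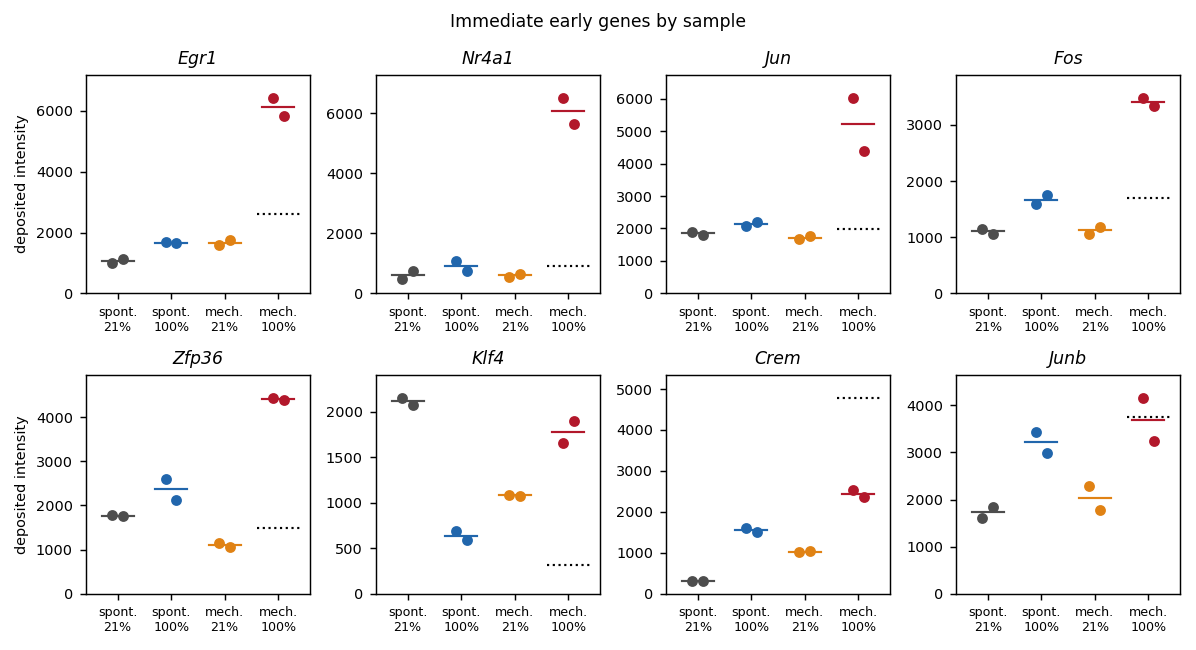
Deposited intensity (vertical axes, from 0) of 8 immediate early genes in each sample of the 4 groups; points are samples a and b, horizontal lines group means, and the dotted line the additive prediction for mechanical 100%. Mechanical 100% lies above the dotted line for 6 genes, below it for Crem and on both sides of it for Junb.

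Other members rose above prediction with different starting levels. Zfp36, whose protein speeds the decay of cytokine mRNAs, measured 1788 and 1754 in spontaneous 21%, 2605 and 2132 in spontaneous 100%, 1148 and 1066 in mechanical 21%, and 4427 and 4399 in mechanical 100%. Ventilation lowered it at 21% oxygen (log2 change -0.66 ± 0.13, adjusted p = 0.015) and raised it at 100% (0.89 ± 0.13, adjusted p = 0.0036), an interaction of 1.55 ± 0.18 (adjusted p = 0.0010). Klf4, a zinc finger factor of epithelium and endothelium, measured 2148 and 2079 in spontaneous 21%, 687 and 589 in spontaneous 100%, 1085 and 1075 in mechanical 21%, and 1660.3 and 1903 in mechanical 100%. Here the combined group did not exceed spontaneous 21%: both singly exposed groups were low, oxygen more so than ventilation, and the interaction of 2.37 ± 0.19 (adjusted p = 0.00017) came from that loss. Klf9, a glucocorticoid-inducible relative, was highest in mechanical 100% at 5839.9 and 5522, against 4189.8 and 4161 in spontaneous 21% and 2477 to 3316 in the singly exposed groups (interaction 1.46 ± 0.18, adjusted p = 0.0013).

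Atf3, a repressor induced by many stresses, measured 487 and 566 in spontaneous 21%, 1175 and 1192 in spontaneous 100%, 843 and 728 in mechanical 21%, and 3725 and 2907 in mechanical 100%. Oxygen in spontaneous breathing raised it (1.11 ± 0.16, adjusted p = 0.0044), the change with ventilation at 21% oxygen was not called (0.54 ± 0.16, adjusted p = 0.059), and the gene had an interaction of 0.90 ± 0.23 (adjusted p = 0.022). That call was close to the threshold: it was lost after quantile (adjusted p = 0.068) and cyclic loess normalization (0.061) and without the filter on intensity (0.060). It was also lost without 1 of 5 samples, namely spontaneous 21% b (0.057), mechanical 100% a (0.069), spontaneous 100% a (0.059), spontaneous 100% b (0.064) or mechanical 21% b (0.074). Myc, a growth-promoting factor, was at 1133 and 1179 in mechanical 100% and between 323 and 469.6 elsewhere (interaction 0.98 ± 0.24, adjusted p = 0.018), a call lost after quantile (0.055) and cyclic loess normalization (0.072) and without spontaneous 100% b (0.053) or mechanical 21% a (0.057). Hbegf, a growth factor shed from stretched or injured epithelium, and Pard3, a polarity protein of epithelial junctions, also stood apart in the combined group. Hbegf measured 555 and 463 there and at most 187 in any other sample (interaction 2.01 ± 0.42, adjusted p = 0.0098). Pard3 measured 1193 and 975 there and 312 to 449.9 elsewhere (interaction 1.61 ± 0.26, adjusted p = 0.0038). In the fit with the lot line as a term, Zfp36 (adjusted p = 0.044) and Klf4 (0.011) were called. The values were 1.02 ± 0.29 for Egr1 (adjusted p = 0.11), 2.55 ± 0.60 for Nr4a1 (0.067), 0.75 ± 0.35 for Jun (0.30), 0.93 ± 0.30 for Fos (0.14) and 0.45 ± 0.38 for Atf3 (0.59), none of them called. Nor were Nr4a3 (1.76 ± 0.80, adjusted p = 0.29), Myc (0.25), Klf9 (0.067), Hbegf (0.26) and Pard3 (0.19) called in that fit.

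Crem was 1 of the 2 immediate early genes called lower; the other, Id3, an inhibitor of helix-loop-helix factors, had -0.73 ± 0.23 (adjusted p = 0.049). Crem encodes the cAMP response element modulator and, from an internal start, the repressor ICER, and its readings were 302 and 319 in spontaneous 21%, 1599.7 and 1498 in spontaneous 100%, 1007 and 1038 in mechanical 21%, and 2532 and 2351 in mechanical 100%. Each exposure alone raised it strongly, by 2.18 ± 0.12 for oxygen (adjusted p = 8.3e-05) and 1.60 ± 0.12 for ventilation (adjusted p = 0.00032), and the combined group was the highest of all. It nonetheless reached only 0.515 of the prediction of 4774 (interaction -0.96 ± 0.18, adjusted p = 0.0062). The sign depends on the scale: on untransformed intensities the combined mean lay 181 units above the sum of the single changes, a difference that was not called (adjusted p = 0.45). In the fit with the lot line as a term the log2 value was -1.17 ± 0.29 (adjusted p = 0.076).

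Some genes were raised by each exposure alone and were no higher with both than with oxygen alone. Ccl2, the chemokine that draws monocytes, measured 334 and 396 in spontaneous 21%, 1514 and 1809.7 in spontaneous 100%, 1449 and 1401 in mechanical 21%, and 1513 and 1275 in mechanical 100%. All 6 exposed samples lay between 1275 and 1809.7, well above spontaneous 21%, so the interaction was -2.11 ± 0.22 (adjusted p = 0.00066), and on the untransformed scale the combined mean was also below the sum of the single changes, by 1328 units. Il6, a cytokine of the acute phase response, had both spontaneous 21% readings under 0. It reached 485 and 461 in spontaneous 100%, 377 and 384 in mechanical 21% and 432 and 425 in mechanical 100%. The exposed readings lie at about the level of the brightest unspiked control, and because the reference group is at the floor, the size of the interaction (-3.53, adjusted p = 0.00016) depends on the offset of the log scale and is no fold change: it was -5.74 with a smaller offset and -2.65 with a larger one. Ttr, a thyroid hormone carrier, went from 59.1 and 112 in spontaneous 21% to 900.1 and 686, 492 and 429.8 and 811 and 784 in spontaneous 100%, mechanical 21% and mechanical 100% (interaction -2.00 ± 0.34, adjusted p = 0.0045). Rup2, a urinary protein gene of the rat, went from 3.43 and 28.7 to 671 and 533, 209 and 225 and 539 and 531 in the same order (interaction -2.38 ± 0.37, adjusted p = 0.0032). For both, the combined group overlapped the group with oxygen alone but was above ventilation alone, by 0.74 ± 0.24 for Ttr (adjusted p = 0.045) and 1.16 ± 0.26 for Rup2 (adjusted p = 0.012). The size of the Rup2 interaction also depends on the offset, since spontaneous 21% was near the floor. With the lot line as a term, Il6 (adjusted p = 0.011) and Ccl2 (0.017) were called and Ttr (0.099) and Rup2 (0.081) were not.

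Of all 19 tested cytokines, chemokines and their regulators, 5 were called higher and 3 lower, against 16.4% and 10.6% of all tested genes. The lower calls were Il6, Ccl2 and the interleukin 1 receptor gene Il1r2 (-0.71 ± 0.18, adjusted p = 0.022). The list had a median interaction of 0.27 that turned to -0.01 after quantile normalization. Cx3cl1, the membrane-bound chemokine fractalkine, measured 616 and 662 in spontaneous 21%, 315 and 303 in spontaneous 100%, 344 and 349.6 in mechanical 21%, and 731 and 768 in mechanical 100%. It was lower in each singly exposed group and somewhat above its starting level in the combined group (interaction 1.99 ± 0.22, adjusted p = 0.00075). Tgfb1, a growth factor of repair and fibrosis, had the same order, with 879 and 748 in mechanical 100%, 513 and 727 in spontaneous 21% and 247 to 345 in the singly exposed groups (interaction 2.31 ± 0.35, adjusted p = 0.0027). Il1a (0.75 ± 0.19, adjusted p = 0.023), Csf1 (2.71 ± 0.87, 0.0496) and Cxcl6 (1.64 ± 0.25, 0.0031), which encode interleukin 1 alpha, a macrophage growth factor and a chemokine, were also called higher. Cx3cl1 was called with the lot line as a term (adjusted p = 0.030) and Tgfb1 was not (0.083). Ccl3, a macrophage chemokine, and Socs3, a brake on cytokine receptors, were not called, and all Ccl3 readings lay under the brightest unspiked control. Ccl3 had an interaction of 1.39 with a 95% interval of -0.04 to 2.82 (adjusted p = 0.13) that was called without mechanical 21% a (0.020). Socs3 had one of 1.55 with an interval of -0.41 to 3.51 (adjusted p = 0.21) that was called without mechanical 21% b (0.045).

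Endothelium lines the pulmonary capillaries and carries enzymes, receptors and anticoagulant proteins on its surface. Of 10 tested endothelial markers 8 were called, all higher, against 16.4% of all tested genes called higher and 10.6% lower. The markers had a median interaction of 1.10 (0.95 after quantile normalization) and a median length of 20.3 kb. Of these markers 1 was called with the lot line as a term, against 94 of all 3181 tested genes. Their median in that fit was 0.80. Their summed intensity was 21627 and 20071 in spontaneous 21%, 10502 and 10266 in spontaneous 100%, 12618 and 13394 in mechanical 21% and 17638 and 15932 in mechanical 100%. The sum was thus lowest with oxygen alone, also low with ventilation alone, and between those and the starting level with both, with no overlap among the 4 groups. In bulk tissue, fewer cells of a type and less RNA per cell cannot be told apart.

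Ace, the angiotensin-converting enzyme of capillary endothelium, measured 5512 and 5215 in spontaneous 21%, 2126 and 2469.9 in spontaneous 100%, 2356 and 2413 in mechanical 21%, and 4795 and 4754 in mechanical 100%. Each exposure alone brought it down, by -1.21 ± 0.11 log2 units for oxygen (adjusted p = 0.00067) and -1.16 ± 0.11 for ventilation (adjusted p = 0.00097), and the combined group sat just under spontaneous 21% (interaction 2.20 ± 0.16, adjusted p = 0.00013). Thbd, thrombomodulin, which turns thrombin into an activator of protein C, measured 977 and 1656 in spontaneous 21%, 1069 and 862 in spontaneous 100%, 384 and 432 in mechanical 21%, and 2171 and 1803 in mechanical 100%. Ventilation alone brought it to its lowest level and the combined group to its highest (interaction 2.57 ± 0.34, adjusted p = 0.0018), although a dimmer Thbd probe set gave 0.61 and was not called. The receptors for vascular endothelial growth factor were dim. Kdr measured 509 and 668 in spontaneous 21%, 175 and 243 in spontaneous 100% and 423 to 496 in the ventilated groups (interaction 1.44 ± 0.30, adjusted p = 0.011). Flt1 measured 227 and 301 in mechanical 21% and 822 and 459.8 in mechanical 100% (interaction 1.67 ± 0.38, adjusted p = 0.014), and its call was lost without the intensity filter (0.066). In the fit with the lot line as a term Ace was called (2.12 ± 0.27, adjusted p = 0.011), and Thbd, Kdr and Flt1 were not.

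Of 5 tested genes of adhesion and NF-kB feedback 3 were called, all higher. Of 7 tested genes of coagulation and fibrinolysis 3 were called, all higher, against 16.4% of all tested genes called higher and 10.6% lower. Icam1, the leukocyte adhesion molecule of endothelium and alveolar epithelium, measured 3679.7 and 3544 in spontaneous 21%, 2081 and 2136 in spontaneous 100%, 3241 and 3266 in mechanical 21%, and 5349.9 and 4804 in mechanical 100%. Oxygen alone lowered it (-0.77 ± 0.11, adjusted p = 0.0040) and oxygen under ventilation raised it (0.63 ± 0.11, adjusted p = 0.0041), an interaction of 1.40 ± 0.15 (adjusted p = 0.00079). The inhibitor of NF-kB encoded by Nfkbia measured 3470.2 and 3566 in spontaneous 21%, 1980.5 and 1799 in spontaneous 100%, 2879 and 3415 in mechanical 21%, and 3655 and 3647 in mechanical 100%. It too was low with oxygen alone, and the combined group lay little above spontaneous 21% (interaction 1.10 ± 0.17, adjusted p = 0.0032). Nfkb1, the precursor of an NF-kB subunit, had an interaction of 0.98 ± 0.21 (adjusted p = 0.011). Vcam1 and Selp, adhesion molecules of endothelium, were not called and had negative values (-0.38 ± 0.22 and -0.52 ± 0.22). Tissue factor, F3, which starts the coagulation cascade, measured 1909 and 1971 in spontaneous 21%, 1407 and 1367 in spontaneous 100%, 2084 and 2020.0 in mechanical 21%, and 3444 and 3215 in mechanical 100%. For F3 the interaction was 1.16 ± 0.15 (adjusted p = 0.0017). Plat, the tissue plasminogen activator that dissolves clots, measured 5743 and 5096 in mechanical 100% and 2386 to 3243 in the other groups (interaction 1.07 ± 0.18, adjusted p = 0.0043). The third called gene of coagulation was Thbd, and the others ran from -0.41 for Plaur to 0.86 for Plau, with a median of 0.86 over all 7 (0.60 after quantile normalization). None of Icam1, Nfkbia, Nfkb1, F3 and Plat was called with the lot line as a term, where their values were 1.07 ± 0.24, 1.37 ± 0.30, 0.82 ± 0.36, 1.02 ± 0.26 and 0.84 ± 0.30.

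**Figure D4:**
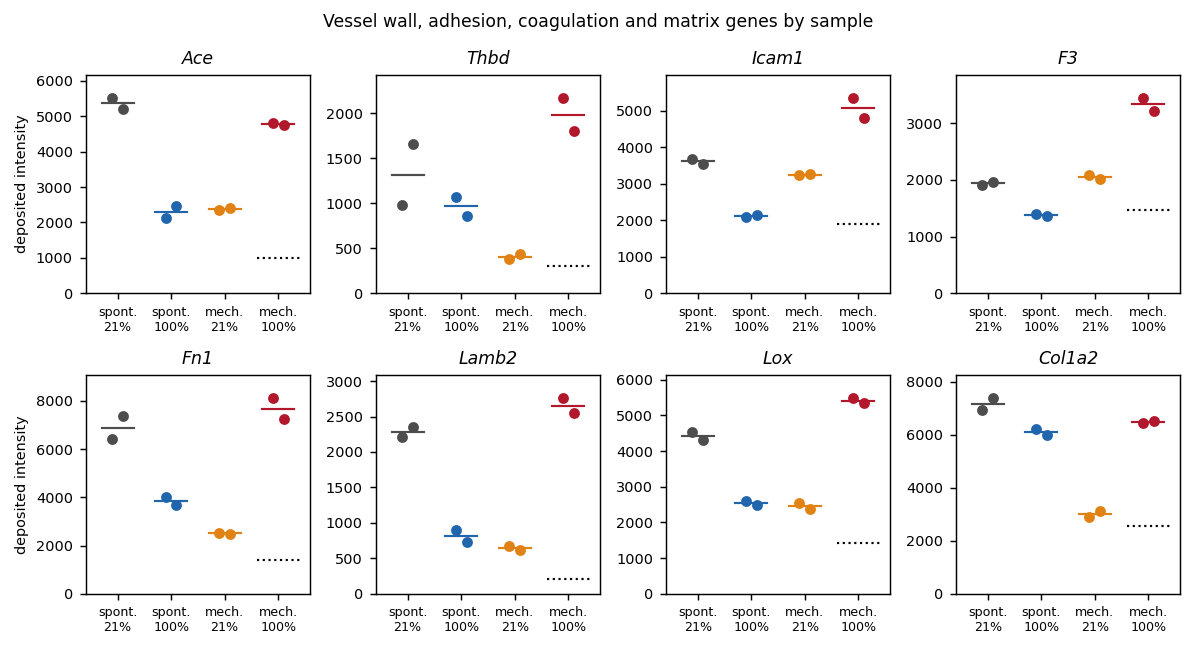
Deposited intensity (vertical axes, from 0) of 8 genes of the vessel wall, adhesion, coagulation and extracellular matrix in each sample of the 4 groups; points are samples a and b, horizontal lines group means, and the dotted line the additive prediction for mechanical 100%. Mechanical 100% lies above the dotted line for every gene drawn, and above both spontaneous 21% samples for Thbd, Icam1, F3, Lamb2 and Lox but not for Ace, Fn1 or Col1a2.

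Matrix genes tended to be lower with each exposure alone and at or above the starting level with both: the median log2 difference from spontaneous 21% was -0.23 in spontaneous 100%, -0.52 in mechanical 21% and 0.19 in mechanical 100%. Of 28 tested collagens, matrix proteins and their enzymes, 13 were called, all higher (median 0.56, 0.73 after quantile normalization, median length 35.4 kb). The share called higher over all tested genes was 16.4%. Fibronectin, Fn1, an adhesive glycoprotein of the matrix and of plasma, measured 6409.6 and 7379 in spontaneous 21%, 4020.5 and 3701 in spontaneous 100%, 2531 and 2486 in mechanical 21%, and 8113 and 7254 in mechanical 100%. For Fn1 the interaction was 2.42 ± 0.17 (adjusted p = 0.00012). Lamb2, a laminin chain of basement membranes, measured 2207 and 2349.7 in spontaneous 21%, 892 and 736 in spontaneous 100%, 671 and 618 in mechanical 21%, and 2758 and 2551 in mechanical 100%. For Lamb2 the interaction was 3.42 ± 0.19 (adjusted p = 4.2e-05), with 1 dimmer probe set at 1.23 that was not called. Both genes lost most with ventilation alone. Lysyl oxidase, Lox, which cross-links collagen and elastin, measured 4536 and 4310.0 in spontaneous 21%, 2608 and 2500.0 in spontaneous 100%, 2553 and 2361 in mechanical 21%, and 5479.6 and 5340.0 in mechanical 100%. For Lox the interaction was 1.91 ± 0.15 (adjusted p = 0.00016), and 3 further Lox probe sets were called in the same direction, from 1.31 to 1.70. Col5a1 and Col1a2, chains of fibrillar collagens, differed in which exposure lowered them. Col5a1 measured 357 to 430.2 in the singly exposed groups, 879 and 1007 in spontaneous 21% and 937 and 847 in mechanical 100% (interaction 2.22 ± 0.22, adjusted p = 0.00052). Col1a2 measured 6928 and 7381 in spontaneous 21%, 6212 and 5979.6 in spontaneous 100%, 2911 and 3125 in mechanical 21%, and 6463 and 6541 in mechanical 100%, so that only mechanical 21% stood apart (interaction 1.33 ± 0.15, adjusted p = 0.00082). Of 11 tested fibroblast markers, some of them on the matrix list too, 5 were called, all higher, Pdgfra, a receptor of mesenchymal cells, among them (1.83 ± 0.31, adjusted p = 0.0042). Fn1, Lamb2, Lox and Col1a2 were called with the lot line as a term, Col5a1 (adjusted p = 0.051) and Pdgfra (0.084) were not.

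Several genes with large positive interactions had this same order of groups and are described singly; most belong to none of the lists. Sptan1, the alpha chain of spectrin under the cell membrane, measured 1504 and 1565 in spontaneous 21%, 505 and 389 in spontaneous 100%, 414 and 381 in mechanical 21%, and 2492 and 1997 in mechanical 100%. For Sptan1 the interaction was 4.08 ± 0.24 (adjusted p = 4.9e-05). Iqsec1, an exchange factor for Arf proteins in membrane traffic, measured 1109 and 991 in spontaneous 21%, 299.8 and 309 in spontaneous 100%, 233 and 158 in mechanical 21%, and 1381 and 1634 in mechanical 100%. For Iqsec1 the interaction was 4.39 ± 0.28 (adjusted p = 6.4e-05). Dync1h1, the heavy chain of cytoplasmic dynein, measured 2286 and 1895 in spontaneous 21%, 735 and 568 in spontaneous 100%, 516 and 831 in mechanical 21%, and 2132 and 2061 in mechanical 100%. For Dync1h1 the interaction was 3.25 ± 0.32 (adjusted p = 0.00049). In each, both singly exposed groups were lower than the other 4 samples without overlap, and mechanical 100% was close to or above spontaneous 21%. Myh11, the myosin heavy chain of smooth muscle, measured 2385 and 1824 in spontaneous 21%, 717 and 410.1 in spontaneous 100%, 458 and 581 in mechanical 21%, and 2095 and 2125 in mechanical 100%. For Myh11 the interaction was 3.82 ± 0.36 (adjusted p = 0.00039). Yet of 10 tested smooth muscle markers only 2 were called higher and 2 lower, against 16.4% and 10.6% of all tested genes. Aebp1, a secreted protein of mesenchymal cells, had the largest interaction among the genes named here, 4.73 ± 0.48 (adjusted p = 0.00058), with 2154 and 1802 in spontaneous 21%, 1550.3 and 1860.3 in mechanical 100% and 205 to 463 in the singly exposed groups. These genes are 64.9, 319, 65.7, 95.1 and 11.3 kb long in the order given, and all 5 were called with the lot line as a term.

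Among the most negative interactions were markers of T cells, fat and striated muscle. Markers of T lymphocytes and thymocytes were high in both mechanical 21% samples. Of 10 tested, 8 were called, all lower (median -3.41), against 10.6% of all tested genes called lower. The summed intensity of the 13 markers on the array was 34904 and 37405 in mechanical 21% against 2286 to 3346 elsewhere. Thy1, a surface glycoprotein of rat thymocytes and neurons, measured 258 and 166 in spontaneous 21%, 195 and 172 in spontaneous 100%, 7727 and 9575 in mechanical 21%, and 173 and 138 in mechanical 100%. For Thy1 the interaction was -5.32 ± 0.32 (adjusted p = 4.9e-05). Cd3g, a chain of the T cell receptor complex, measured 4467 and 4691 in mechanical 21% and 264 to 603 elsewhere (interaction -3.34 ± 0.23, adjusted p = 0.00010). Lck, the kinase of that complex, measured 8396 and 8426 in mechanical 21% and 719 to 1316 elsewhere (interaction -3.47 ± 0.33, adjusted p = 0.00042). The defining markers Cd8a, Cd28, Lat and Rag1 were at or below 0 in at least 1 sample. B lymphocyte and class II genes did not share this: of 9 tested, limma called 0, and 3 had an unadjusted p under 0.05.

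The summed intensity of fat markers was highest in the same mechanical 21% samples, at 33023 and 34134 against 13623 to 17725 in the other samples. Of 16 tested, 3 were called higher and 10 lower (median -1.40), against 16.4% and 10.6% of all tested genes. The higher calls were Lipe (2.31 ± 0.35, adjusted p = 0.0028), Fasn (1.53 ± 0.23, 0.0027) and Lpl (0.76 ± 0.15, 0.0073), so the list did not move as 1 block. Ucp1, the uncoupling protein of brown fat, measured 248 and 271 in spontaneous 21%, 1098 and 1087 in spontaneous 100%, 6179 and 6247 in mechanical 21%, and 37.8 and 31.1 in mechanical 100%. It was high with ventilation alone, raised with oxygen alone and near the floor with both. The interaction of -8.31 ± 0.21 (adjusted p = 3.1e-07) was the most negative of all genes. With readings that low its size depends on the offset of the log scale and is no fold change. Fabp4, a fatty acid carrier of adipocytes, measured 542 and 459 in spontaneous 21%, 1368 and 1158 in spontaneous 100%, 3387 and 3457 in mechanical 21%, and 33.3 and 77.5 in mechanical 100%. For Fabp4 the interaction was -6.53 ± 0.31 (adjusted p = 1.6e-05), a size that likewise depends on the offset. Cidea, a lipid droplet protein of brown fat, measured 1945 and 2029 in mechanical 21% and 67.7 and 157 in mechanical 100% (interaction -5.03 ± 0.39, adjusted p = 0.00015). Scd, the stearoyl-CoA desaturase that adipocytes and type 2 cells both express, measured 6645 and 6571 in mechanical 21% and 1165 to 1805 in the other samples (interaction -2.77 ± 0.16, adjusted p = 4.2e-05).

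Striated muscle markers were high in both spontaneous 100% samples. The summed intensity of fast skeletal muscle markers was 31759.5 and 30379 there against 4351 to 10667 elsewhere. Of 17 tested, 11 were called, all lower (median -2.66), against 10.6% of all tested genes called lower. Tnnc2, troponin C of fast fibres, measured 329.9 and 415 in spontaneous 21%, 3674 and 4065 in spontaneous 100%, 534 and 469 in mechanical 21%, and 23.8 and 58.5 in mechanical 100%. For Tnnc2 the interaction was -6.02 ± 0.33 (adjusted p = 4.2e-05), a size that depends on the offset, since mechanical 100% was near the floor. Ckm, muscle creatine kinase, measured 4936 and 4779.7 in spontaneous 100% and 476 and 533 in mechanical 100% (interaction -4.00 ± 0.22, adjusted p = 4.2e-05). Acta1, skeletal alpha actin, measured 1992 and 1804 in spontaneous 21%, 7525 and 6713 in spontaneous 100%, 3405 and 3495 in mechanical 21%, and 649.7 and 753 in mechanical 100%. For Acta1 the interaction was -4.12 ± 0.18 (adjusted p = 9.1e-06). Heart markers had sums of 36130.4 and 34377 in spontaneous 100% against 20312 to 23316 elsewhere. Of 16 tested, 8 were called lower and 1, Atp2a2, higher (1.90 ± 0.18, adjusted p = 0.00040). Myl7, the atrial myosin light chain that also marks the heart muscle sleeves of pulmonary veins, was at 8314 and 8410.1 in spontaneous 100% (interaction -1.53 ± 0.18, adjusted p = 0.00092). Krt4, a keratin of squamous epithelium, measured 1139.8 and 1214 in spontaneous 21% and 6289 and 6826 in spontaneous 100% and was listed below 0 in all 4 ventilated samples (interaction -2.44, adjusted p = 0.00066, the size of the oxygen change in spontaneous breathing, since both ventilated groups are at the floor).

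The mechanical 21% samples thus stood apart in T cell and fat markers and the spontaneous 100% samples in muscle markers and Krt4, in both letters alike. The mechanical 100% samples had lower T cell, fat and fast muscle sums than spontaneous 21%, for fast muscle 4351 and 4471 against 7535 and 7661. Their heart sums were higher than those of spontaneous 21%, 23316 and 21486 against 20312 and 20416. Every interaction uses those groups. The tissue that the marker RNA came from was not tested. Thy1, Cd3g, Lck, Ucp1, Fabp4, Cidea, Scd, Tnnc2, Ckm, Acta1, Myl7 and Krt4 kept negative interactions with each sample left out in turn. All were called with the lot line as a term. Over the whole lists that fit called fewer members than the main fit: 4 of 10 T cell, 5 of 16 fat, 6 of 17 fast muscle and 5 of 16 heart markers. It called 94 of all 3181 tested genes. What share of the other interactions moves with the content of T cell, fat or muscle RNA was not tested. The lung's own cells were present in every sample: the summed intensity of alveolar type 2 markers ran from 39016 to 87607 and was lowest in both mechanical 100% samples.

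**Figure D5:**
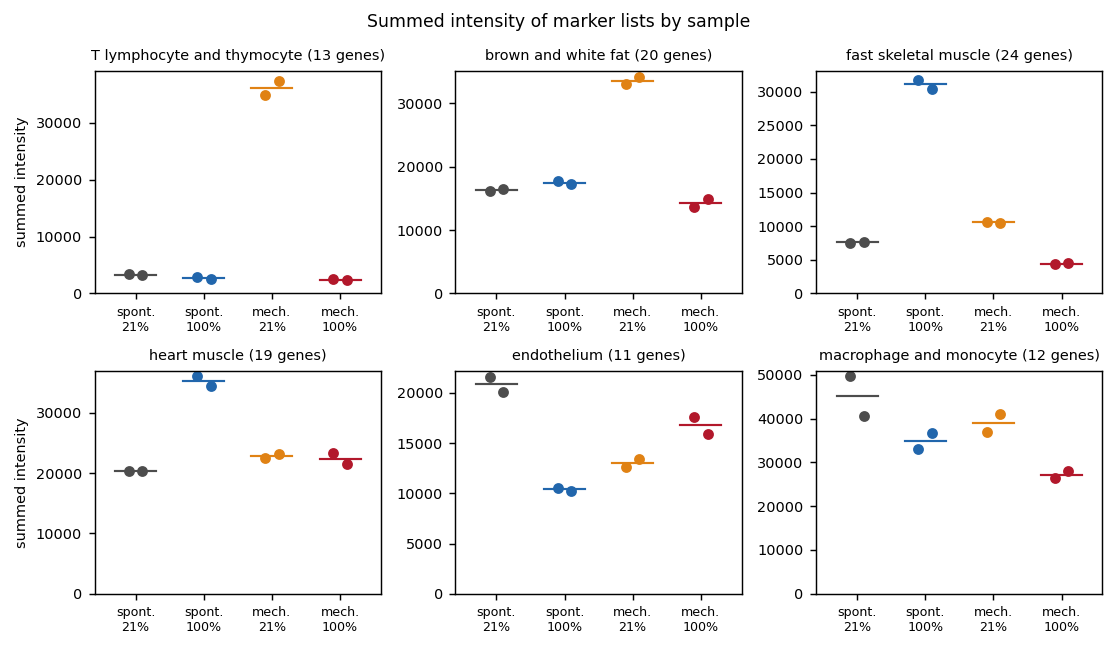
Summed deposited intensity (vertical axes, from 0; values below 0 counted as 0) of 6 lists of marker genes in each sample of the 4 groups, with the number of markers on the array in parentheses; points are samples a and b and horizontal lines group means. T cell and fat markers are high in mechanical 21%, muscle markers in spontaneous 100%, and endothelial markers are lowest in spontaneous 100%.

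Genes of oxidative phosphorylation, the respiratory complexes and ATP synthase of mitochondria, were mostly called lower. Of 26 tested subunits, 21 were called, all lower, against 10.6% of all tested genes called lower. The median of the subunits was -1.04 (-0.98 after quantile normalization). Both singly exposed groups lay above spontaneous 21% (median log2 differences of 0.51 for spontaneous 100% and 0.56 for mechanical 21%) and mechanical 100% close to it (-0.05). Uqcrfs1, the Rieske iron-sulfur subunit of complex III, measured 3511 and 3861 in spontaneous 21%, 6187 and 5954 in spontaneous 100%, 6964 and 6239 in mechanical 21%, and 3503 and 4237 in mechanical 100%. For Uqcrfs1 the interaction was -1.48 ± 0.19 (adjusted p = 0.0014), and 2 further probe sets were called in the same direction. Ndufs6, a subunit of complex I, measured 2666 and 3022 in spontaneous 21%, 3368 and 3737 in spontaneous 100%, 4183 and 4211 in mechanical 21%, and 2043 and 2191 in mechanical 100%. For Ndufs6 the interaction was -1.29 ± 0.17 (adjusted p = 0.0016). Cox8b, the form of a cytochrome oxidase subunit found in muscle and brown fat, measured 367 and 443 in spontaneous 21%, 1178 and 1274 in spontaneous 100%, 1409 and 1534 in mechanical 21%, and 285 and 278 in mechanical 100%. For Cox8b the interaction was -3.74 ± 0.22 (adjusted p = 4.4e-05). Muscle and brown fat are rich in mitochondria, and the muscle and fat markers above were high in the same 4 samples; the subunits are also short genes, with a median of 7.70 kb. The part of either in the result was not tested. With the lot line as a term 2 of the 26 subunits were called, Cox8b among them, against 94 of all 3181 tested genes. The median of the subunits in that fit was -1.10. Uqcrfs1 had -1.24 ± 0.32 (adjusted p = 0.081) and Ndufs6 -1.17 ± 0.28 (0.073) there, neither of them called.

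Of 36 tested cytosolic ribosomal proteins 10 were called, all lower (median -0.50, -0.24 after quantile and -0.14 after cyclic loess normalization). The share called lower over all tested genes was 10.6%, and 16.4% were called higher. In the fit with that term for the lot line the ribosomal median was -0.03 and limma called 0, with 2 at an unadjusted p under 0.05. The list's median log2 differences from spontaneous 21% were -0.17 in spontaneous 100%, -0.21 in mechanical 21% and -0.81 in mechanical 100%, so the singly exposed groups were not above spontaneous 21% over the list, unlike in the gene shown next. Rpl4, a protein of the large subunit, measured 6314 and 6114 in spontaneous 21%, 8672 and 10839 in spontaneous 100%, 8054 and 7557 in mechanical 21%, and 6219 and 5944 in mechanical 100%. For Rpl4 the interaction was -0.996 ± 0.18 (adjusted p = 0.0065). Ribosomal transcripts are among the brightest on the array, and the 99th percentile of all intensities was 7111 to 8352 on the mechanical 100% arrays against 9934 to 14547 on the others. Of 22 tested proteasome subunits 7 were called lower and 1 higher (median -0.31). Psma7, of the outer ring, measured 3210.3 and 2665 in spontaneous 21%, 3997 and 3888 in spontaneous 100%, 4954 and 4868 in mechanical 21%, and 2901 and 3076 in mechanical 100%. For Psma7 the interaction was -1.14 ± 0.17 (adjusted p = 0.0028). Psmb1, of the catalytic ring, had one of -1.01 ± 0.16 (adjusted p = 0.0037). In both, the singly exposed groups were above spontaneous 21% and the combined group close to it. None of the 3 was called with the lot line as a term.

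Heat shock genes, whose products refold damaged proteins, and oxidant defence genes were called about as often as genes in general (27.0%). Of 19 tested heat shock genes 3 were called higher and 2 lower, with a median of -0.05 that was 0.15 after quantile normalization. Hspa1a, the inducible Hsp70, measured 6936 and 6995 in spontaneous 21%, 8920.1 and 12655 in spontaneous 100%, 3965 and 3966 in mechanical 21%, and 5617 and 6154 in mechanical 100%. Oxygen raised it in both breathing modes and ventilation lowered it at both oxygen levels, with an interaction of -0.05 ± 0.23 and a 95% interval of -0.57 to 0.48 (adjusted p = 0.90). Its sign turned after quantile (0.23) and cyclic loess (0.19) normalization, with array s2A alone (0.032), with the lot line as a term (0.47), and without spontaneous 100% b (0.20) or mechanical 100% a (0.01). Stip1, the co-chaperone that links Hsp70 to Hsp90, measured 1626 and 1649 in spontaneous 21%, 3517 and 3625 in spontaneous 100%, 1682 and 1764 in mechanical 21%, and 4715 and 4368 in mechanical 100%. It rose with oxygen by 1.11 ± 0.11 in spontaneous breathing and by 1.38 ± 0.11 under ventilation, and the difference between these changes had a 95% interval of -0.08 to 0.62 (adjusted p = 0.21). Hspe1, the mitochondrial co-chaperonin, was instead called lower (-1.02 ± 0.21, adjusted p = 0.0098), with 5403 and 5866 in spontaneous 21% and 7383 to 12929 in the exposed groups.

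Among oxidant defence genes 3 of 30 were called higher and 5 lower (median -0.16). Hmox1, haem oxygenase, measured 1332 and 1517 in spontaneous 21%, 4392 and 3554 in spontaneous 100%, 1382 and 1199 in mechanical 21%, and 5755 and 5691 in mechanical 100%. It was an oxygen response with little change from ventilation alone, and the interaction of 0.67 ± 0.20 (adjusted p = 0.042) was near the threshold. It lost its call without the intensity filter (0.093), without the variance trend (0.076), and with the letter as a block (0.059). It also lost it without 1 of 6 samples, namely spontaneous 21% b (0.11), spontaneous 100% b (0.12), mechanical 21% a (0.056), mechanical 21% b (0.13), mechanical 100% a (0.10) or mechanical 100% b (0.083). Sod3, the extracellular superoxide dismutase bound to matrix, measured 2220.2 and 2426 in spontaneous 21%, 1606 and 1485 in spontaneous 100%, 1948 and 1961 in mechanical 21%, and 2837 and 3039 in mechanical 100%. For Sod3 the interaction was 1.15 ± 0.16 (adjusted p = 0.0022). Cyp1b1, a cytochrome P450 of stromal and vascular cells, measured 1514 and 1515 in mechanical 100% and 621 to 1112 elsewhere (interaction 1.16 ± 0.20, adjusted p = 0.0050). With the lot line as a term Hmox1, Sod3, Cyp1b1 and Hspe1 were not called.

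Of the genes that define alveolar epithelium, Sftpc and Ager were not called. Sftpc, surfactant protein C of type 2 cells, measured 14817 and 10627 in spontaneous 21%, 6019.6 and 9660.2 in spontaneous 100%, 7784 and 9252 in mechanical 21%, and 3543 and 4261 in mechanical 100%. Its interaction was -0.41 ± 0.35 with a 95% interval of -1.21 to 0.38 (adjusted p = 0.40), and the sign turned on untransformed intensities and with the lot line as a term (0.41 ± 0.58). Ager, the receptor that marks type 1 cells, measured 14892 and 12468 in spontaneous 21%, 8370.5 and 10084 in spontaneous 100%, 9983 and 10954 in mechanical 21%, and 4999 and 6094 in mechanical 100%. It had an interaction of -0.36 ± 0.22 and an interval of -0.86 to 0.15 (adjusted p = 0.25), which turned to 0.42 ± 0.34 with the lot line as a term. These intervals still allow a combined level well below or modestly above the product of the single changes, so they do not show additivity. Nkx2-1, the transcription factor of lung epithelium, did depart: it measured 2910.4 and 3388 in spontaneous 21%, 2458 and 2095 in spontaneous 100%, 1608 and 1475 in mechanical 21%, and 3271 and 3675 in mechanical 100% and was lowest with ventilation alone (interaction 1.61 ± 0.20, adjusted p = 0.0012). In all, 1 of 9 type 2 markers was called higher and 2 lower. The lower calls were Scd, described with the fat markers, and Cd36 (-0.90 ± 0.27, adjusted p = 0.040), and both are on the fat list too. The calls among other lung epithelium were 1 of 6 type 1 markers and 4 of 10 airway markers, all higher. Over all tested genes 16.4% were called higher and 10.6% lower.

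Of 7 tested genes of the circadian clock 3 were called higher and 1 lower, against 16.4% and 10.6% of all tested genes. Bmal1, the core activator, was at 342 and 353 in mechanical 100% and 64.8 to 148 elsewhere (interaction 1.78 ± 0.40, adjusted p = 0.014), all under the level of the brightest unspiked control. Dbp, an output gene that Bmal1 drives, measured 455 and 439 in spontaneous 21%, 1276 and 619.9 in spontaneous 100%, 1212 and 1392 in mechanical 21%, and 484 and 663 in mechanical 100%. For Dbp the interaction was -2.08 ± 0.43 (adjusted p = 0.0095); the call was lost without the intensity filter (0.065). Per2, a repressor of the loop, had its lowest readings in mechanical 21% at 195 and 143 (interaction 1.54 ± 0.29, adjusted p = 0.0069). All Per2 readings were under that control too. The hours at which tissue was taken are not given in the sources used here. Limma called 0 of the 7 with the lot line as a term (4 had an unadjusted p under 0.05), and the adjusted p was 0.22 for Bmal1, 0.25 for Dbp and 0.23 for Per2.

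The remaining pathway lists are set against all tested genes, of which 16.4% were called higher and 10.6% lower. Counts near those shares say nothing particular about a list. Mx2, an interferon-induced GTPase, was 1 of the 10 genes low in mechanical 100% by the stricter rule: it measured 1139 and 1171 in spontaneous 21%, 921 and 1152 in spontaneous 100%, 1188 and 1161 in mechanical 21%, and 246 and 314 in mechanical 100%. For Mx2 the interaction was -1.77 ± 0.24 (adjusted p = 0.0018), and -1.24 ± 0.39 with the lot line as a term (adjusted p = 0.14), no longer called. Of 14 genes of interferon response and class I presentation 1 was called higher and 2 lower. Endoplasmic reticulum chaperones had 2 of 14 called, both higher, and polyamine and growth arrest genes 1 of 10 higher and 1 lower. Glucose transport and glycolysis had 2 of 19 higher and 6 lower. Among them, Pdk1, the kinase that closes pyruvate dehydrogenase, was high only in mechanical 21%, at 329 and 368 against 75.7 to 135 elsewhere (interaction -1.98 ± 0.35, adjusted p = 0.0054), a reading under the brightest unspiked control. Cell division genes had 2 of 17 higher and 3 lower. Ccnb1, the mitotic cyclin, was likewise high only in mechanical 21%, at 418 and 379 (interaction -1.63 ± 0.34, adjusted p = 0.0097), where the T cell markers were also high. All Ccnb1 readings lay under the brightest unspiked control. Neither Pdk1 (adjusted p = 0.11) nor Ccnb1 (0.22) was called with the lot line as a term.

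Of 11 macrophage and monocyte markers limma called 0, with a median of -0.12, and 1 had an unadjusted p under 0.05. Of 8 neutrophil markers 1 was called higher and 2 lower, against 27.0% of all genes called in either direction. The defensin RatNP-3b measured 8.83 and 28.7 in spontaneous 21%, 37.3 and 83.1 in spontaneous 100%, 1117 and 1297 in mechanical 21%, and 295 and 263 in mechanical 100%. It was high with ventilation alone and less so with both (interaction -2.72 ± 0.42, adjusted p = 0.0031). That size depends on the offset, since spontaneous 21% was near the floor. Lcn2, lipocalin 2, which epithelium also makes, was instead lower in each singly exposed group (1.35 ± 0.17, adjusted p = 0.0015). Of 4 mast cell markers Kit, the stem cell factor receptor, was called higher (1.72 ± 0.28, adjusted p = 0.0038) and 1, Cpa3, lower. All Kit readings lay under the brightest unspiked control. Lcn2 was called with the lot line as a term (adjusted p = 0.042) and RatNP-3b (0.081) and Kit (0.073) were not. Red cell markers had 1 of 5 higher and 1 lower, and squamous epithelium 1 of 3 lower (Krt4). Of 3 nerve and glia markers limma called 0, and 0 had an unadjusted p under 0.05.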

How the data were processed

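Total RNA of rat lung was measured on 9 arrays, per the labels. The authors deposited intensity values on a linear scale; how these were summarised and scanned is not given in the sources used here. Their 2% trimmed means lay between 800.5 and 801.1 on every array, which was read from the values, and 18.4% to 19.9% of each array's probe sets were at or below 0. Values below 0 were set to 0, an offset of 40 (5% of the trimmed mean) was added, log2 was taken, and arrays s2A and s2B were averaged. The 59 control probe sets were left out and the 40% of probe sets of lowest mean were not tested. The group means were modelled in R 4.3.3 with limma 3.58.1 (eBayes with a variance trend), the interaction and 4 simple contrasts were drawn from it, and p-values were adjusted by Benjamini-Hochberg over the tested probe sets. The procedure was tested on simulated data.

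A gene was represented by its brightest probe set with a single symbol. The array annotation named 1 symbol for 7006 probe sets, more than 1 for 308 and none for 1426; 6985 symbols were matched by gene number to RefSeq. Gene lengths and promoters came from RefSeq, assembly GRCr8. The genes and the 33 lists described were chosen with earlier results of these data known. Named genes were those of largest called interaction in each direction, list members of smallest p, genes of largest interaction in each pattern of group means, and a few further stress and lung genes, of which the text names a part. The analyses of gene length, brightness and group order were added after the values were seen. Alternatives covered normalization, offset, scale, filter, the repeated arrays, the letter as a block, the lot line, the variance trend, the threshold and each sample left out. Genes without a promoter in the reference table were not searched. Plots were made in Python 3.11.15 with matplotlib 3.10.9.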

Additional observations from a re-analysis of the deposited data

Results flagged for a closer look

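The change with ventilation differed between 21% and 100% oxygen, by limma's test of that difference, for 1439 probe sets and for the named genes that follow, each with its log2 interaction. Among immediate early genes and their companions it was 1.23 for Egr1, 2.67 for Nr4a1, 2.63 for Nr4a3, 1.36 for Jun, 0.99 for Fos, 0.90 for Atf3, 0.98 for Myc, 1.55 for Zfp36, 2.37 for Klf4, 1.46 for Klf9, -0.96 for Crem, 2.01 for Hbegf and 1.61 for Pard3. For secreted proteins and their regulators the interaction was -3.53 for Il6, -2.11 for Ccl2, -2.00 for Ttr, -2.38 for Rup2, 1.99 for Cx3cl1 and 2.31 for Tgfb1. The genes of vessel wall, adhesion and coagulation had 2.20 for Ace, 2.57 for Thbd, 1.44 for Kdr, 1.67 for Flt1, 1.40 for Icam1, 1.10 for Nfkbia, 0.98 for Nfkb1, 1.16 for F3 and 1.07 for Plat. Among matrix and mesenchymal genes it was 2.42 for Fn1, 3.42 for Lamb2, 1.91 for Lox, 2.22 for Col5a1, 1.33 for Col1a2, 1.83 for Pdgfra, 4.73 for Aebp1 and 3.82 for Myh11. For cytoskeletal and transport genes the interaction was 4.08 for Sptan1, 4.39 for Iqsec1 and 3.25 for Dync1h1. The T cell genes had -5.32 for Thy1, -3.34 for Cd3g and -3.47 for Lck. Among fat genes it was -8.31 for Ucp1, -6.53 for Fabp4, -5.03 for Cidea and -2.77 for Scd. For striated muscle and squamous genes the interaction was -6.02 for Tnnc2, -4.00 for Ckm, -4.12 for Acta1, -1.53 for Myl7 and -2.44 for Krt4. The respiratory chain, ribosome and proteasome genes had -3.74 for Cox8b, -1.48 for Uqcrfs1, -1.29 for Ndufs6, -0.996 for Rpl4, -1.14 for Psma7 and -1.01 for Psmb1. Among stress and oxidant defence genes it was -1.02 for Hspe1, 0.67 for Hmox1, 1.15 for Sod3 and 1.16 for Cyp1b1. For clock, interferon and lung epithelial genes the interaction was 1.78 for Bmal1, 1.54 for Per2, -2.08 for Dbp, -1.77 for Mx2 and 1.61 for Nkx2-1. The leukocyte, metabolic and cell cycle genes had -2.72 for RatNP-3b, 1.35 for Lcn2, 1.72 for Kit, -1.98 for Pdk1 and -1.63 for Ccnb1. Groups of 2 samples are too small for a search for single outlying samples, and no column of the values table was left unused.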

How the results depend on the processing

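The number of called probe sets, 1439, stayed within 1.5 times that value under every alternative run except the lot line as a term, which called 159 (100 higher, 59 lower). Leaving out each sample in turn gave 980 to 1328 calls, 620 to 818 higher and 337 to 510 lower. With the letter as a replicate block 1265 probe sets were called, 1248 of them also called in the same direction without it; the letters did not deviate together (correlations from -0.13 to 0.07), so they were not taken to pair samples. Untransformed intensities gave 1520 calls, 1346 of them shared in direction, no filter 1105, a filter of 60% 1255 and a threshold of 0.10 1950.

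Of the 78 named genes, 41 lost their call and 3 turned sign with the lot line as a term. On untransformed intensities Crem turned to 181, Junb to 175 and Sftpc to 266 intensity units. Without 1 sample Junb ran from -0.21 to 0.15 and Hspa1a from -0.30 to 0.20. Hspa1a turned to 0.23 after quantile and 0.19 after cyclic loess normalization, 0.032 with array s2A alone and 0.47 with the lot line as a term. With the lot line as a term Sftpc turned to 0.41 and Ager to 0.42. The cause of these turns was not tested; of these 5 genes only Crem was called for the interaction. Quantile normalization also turned the list medians of cytokines (-0.01), heat shock proteins (0.15), glycolysis (0.01), class II genes (0.20) and mast cells (-0.17), and cyclic loess those of class II genes (0.19) and mast cells (-0.23). The lot line as a term turned those of heat shock proteins (0.19), glycolysis (0.08), class II genes (0.18), macrophages (0.13), mast cells (-0.12), red cells (0.08) and type 2 cells (0.30). Signal limits the dim genes: 65 of the 78 named genes were still tested under the filter of 60%, and readings under the brightest unspiked control set no reliable fold. The number of arrays limits the precision of all others, and the lot line and the groups cannot be told apart beyond the repeated sample.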
